A study of Mus musculus with 12 samples.

Results

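The 10 genes described here encode the NF-kB transcription factor subunits Rela, Rel, Relb, Nfkb1 and Nfkb2, the inhibitors Nfkbia and Nfkbie, the nuclear inhibitor-like proteins Bcl3 and Nfkbiz, and the ubiquitin-editing enzyme Tnfaip3. They were taken by gene symbol from the 21930 genes of the deposited count table, in which each symbol had 1 row. The group was put together with results from these libraries known, so its members were chosen by measured values as well as by function, and the differences given below are a description and not independent evidence of a response of the pathway. NF-kB dimers wait in the cytoplasm, held by inhibitors of the IkB family, until a receptor signal leads to the destruction of the inhibitor and the dimer enters the nucleus. Several of its target genes encode its own inhibitors, which close the loop, and the family is best known in the eye for the inflammatory programs of microglia, macrophages, endothelium and RPE. The activity of the factors is set largely by protein location and stability, which transcript levels do not measure.

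RNA-seq libraries came from 12 wild-type male C57BL/6J mice, 3 in each group. IF mice were kept on alternate-day fasting (24 h without food, then 24 h with food) for 12 weeks from 8 weeks of age, AL mice ate freely, and the diets went on after the injection. AL+NaIO3 and IF+NaIO3 mice received 1 intraperitoneal injection of sodium iodate, an oxidant that damages the RPE, at 25 mg/kg, while AL+PBS and IF+PBS mice received PBS, and tissue was taken 7 days later. The labels name the tissue as RPE, choroid and sclera and the methods name eye cups. Its photoreceptor markers were abundant, with the 13 genes summing to between 20195 and 67403 CPM (counts scaled to a fixed library total), against 611 to 2255 CPM for 8 RPE markers.

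Each library held between 26364665 and 43046950 counts (median 31822705), at which 3 counts, the limit that a count of 0 allows, equal 0.0708 to 0.107 CPM. Library totals were first adjusted by edgeR's TMM factors, which lay between 0.934 and 1.14, and intervals of this kind cover counting error only. The library of AL+NaIO3 replicate 3 stood apart from the rest. Its 5 stromal markers summed to 1243 CPM against 55.6 to 190 in the other libraries, its photoreceptor markers were the lowest of the 12, and 6 of the 10 genes had their highest level in it. In AL+PBS replicate 2, 4 lens markers summed to 172 CPM against 0.717 to 4.16 elsewhere. Both comparisons that use AL+NaIO3 are given with and without AL+NaIO3 replicate 3 for each of the 10 genes. For other pathway genes this is done in the comparisons where they were called.

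The sequences near the start sites are shown first because many NF-kB family genes carry binding motifs for NF-kB itself. RefSeq windows of GRCm38.p6, from 250 bases before to 50 bases after a start of transcription, were at hand for 7 of the 10 genes and were searched on both strands for the NF-kB consensus motif of 10 bases, and those of Nfkb1, Relb and Nfkbiz were not analysed here. A match was found in 6 of these 7 genes (85.7%), against 1388 of 27025 genes (5.14%) in all windows of this length. By window the numbers were 8 of 10 (80%) against 1480 of 32851 (4.51%). Nfkb2 held 4 separate sites in its 3 windows, Tnfaip3 held 2, and Bcl3, Rel, Nfkbia and Nfkbie held 1 each. The letters of the motif were not found in the window of Rela. A match is a stretch of letters and no measure of binding.

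Below, 30 bases around a site are printed on the strand of the gene, with the matching bases in capitals. Bcl3 and Nfkb2 are shown because they differed most between the groups, and Nfkbia, Rel, Nfkbie and Tnfaip3 because the same motif stands beside genes with much smaller or opposite differences. Positions are on GRCm38, and the number given for each is that of the first matching base relative to the RefSeq start of transcription.
Bcl3, 3, minus strand of chr7:19822734-19822763: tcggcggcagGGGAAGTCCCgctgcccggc
Nfkb2, -39, plus strand of chr19:46304688-46304717: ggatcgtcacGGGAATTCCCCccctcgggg
Nfkb2, -11, plus strand of chr19:46304716-46304745: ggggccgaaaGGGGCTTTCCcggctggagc
Nfkbia, -29, minus strand of chr12:55492657-55492686: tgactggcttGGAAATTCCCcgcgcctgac
Nfkbie, -106, plus strand of chr17:45555584-45555613: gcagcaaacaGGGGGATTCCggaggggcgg
Rel, -92, minus strand of chr11:23771042-23771071: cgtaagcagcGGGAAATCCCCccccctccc
Tnfaip3, -12, minus strand of chr10:19015403-19015432: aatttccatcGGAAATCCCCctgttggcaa
In Nfkb2 at -39 and in Rel at -92 the capitals cover overlapping matches. The site of Bcl3 lies just after the start, inside the transcript. Printed sites of Nfkb2 and Tnfaip3 lie before the start used here but within the deposited span of their genes.

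Levels can be set side by side between genes only per length, for which the authors' FPKM values were used. Tnfaip3, which removes and adds ubiquitin chains to switch NF-kB signalling off, had the highest FPKM of the 10 genes in each library, from 19.4 to 65.7. In AL+PBS its mean was 62.3 ± 3.83 FPKM (SD, n = 3 mice), and Nfkbia, the inhibitor IkB-alpha, followed with 14.2 ± 0.543. Rela, the transactivating p65 subunit, stood at 9.24 ± 0.634 and Nfkb1, precursor of the p50 subunit, at 7.68 ± 1.23, and the libraries of this pair overlapped. Nfkbiz came next with 4.32 ± 0.138 FPKM. Nfkbie, Relb, Nfkb2 and Rel had means between 0.853 and 1.12 FPKM, and neighbours in this order overlapped. Bcl3 was lowest, at 0.541 ± 0.254 FPKM.

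**Figure D1:**
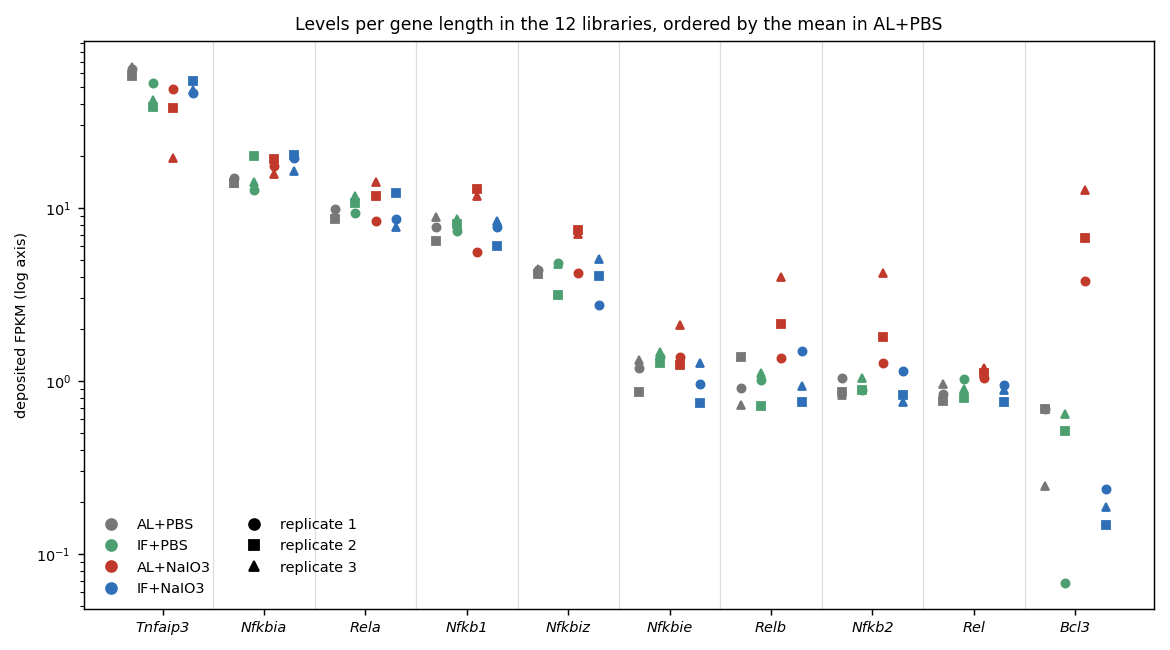
Deposited FPKM (log axis) of the 10 genes in each of the 12 libraries, ordered by the mean in AL+PBS, with colour for the group and marker shape for the replicate number. Bcl3 lies at 3.78 to 12.7 FPKM in the AL+NaIO3 libraries and at 0.0678 to 0.691 FPKM in the other 9, while the order of the most abundant genes is alike in the groups.

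The order changed in AL+NaIO3 most of all for Bcl3, and Nfkbie also stood below Relb and Nfkb2 by mean there. Bcl3 was the lowest of the 10 genes in each of the other 9 libraries, and ranked 6, 6 and 4 in the AL+NaIO3 libraries. The ratio of Bcl3 to Nfkb1, whose p50 product is a partner of the Bcl3 protein, was 0.677, 0.517 and 1.08 in AL+NaIO3 (FPKM over FPKM, replicates 1 to 3) and between 0.00918 and 0.106 in the other libraries. The ratio of Nfkb2 to Nfkb1 was 0.227, 0.138 and 0.362 in AL+NaIO3 and between 0.0887 and 0.147 elsewhere, so replicate 2 lay within the range of the other groups. FPKM was not a fixed multiple of CPM for a gene, since its ratio to CPM varied 2.50-fold between libraries for Bcl3 and 1.03-fold to 1.52-fold for the other 9 genes, and why it varied was not tested.

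Bcl3, an atypical IkB protein that binds p50 and p52 dimers in the nucleus and can activate or repress their targets, had the largest difference of the 10 genes. Its levels were 7.51, 8.82 and 21.1 CPM in AL+NaIO3 (replicates 1 to 3). They were 1.44, 1.49 and 0.558 CPM in AL+PBS, 0.160, 0.490 and 0.621 CPM in IF+PBS, and 0.574, 0.165 and 0.450 CPM in IF+NaIO3. The lowest AL+NaIO3 library thus lay above the highest of the other 9, and the IF+NaIO3 and IF+PBS libraries overlapped. The reads behind these values were 234 to 794 counts in AL+NaIO3, 17 to 63 in AL+PBS, 5 to 20 in IF+PBS and 6 to 20 in IF+NaIO3, so the 2 IF groups were measured at a depth where counting error is large.

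Nfkb2 encodes p100, the precursor of p52 and itself an inhibitor of RelB, and belongs to the non-canonical arm of the pathway. It stood at 6.16, 7.61 and 16.2 CPM in AL+NaIO3, above the 4.67, 3.78 and 3.15 CPM of AL+PBS. Levels were 3.85, 4.05 and 4.60 CPM in IF+PBS and 4.93, 3.91 and 3.43 CPM in IF+NaIO3. The AL+NaIO3 libraries were again above the other 9, although replicates 1 and 2 were much closer to them than replicate 3. Nfkb2 overlaps Psd on the opposite strand, the only such overlap among the 10 genes, and whether reads were counted by strand is not given in the sources used here. Psd had 185 to 310 CPM in AL+NaIO3 and 285 to 536 CPM in the other libraries, and the part of Psd reads in the level of Nfkb2 was not tested.

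Relb, the subunit that pairs with p52 and p100, had 5.29, 5.37 and 9.16 CPM in AL+NaIO3 and 2.98, 3.75 and 1.94 CPM in AL+PBS. It had 2.69, 2.84 and 3.23 CPM in IF+PBS and 4.27, 2.70 and 3.53 CPM in IF+NaIO3. The AL+NaIO3 libraries did not overlap those of the other groups in CPM, but in FPKM they overlapped both AL+PBS and IF+NaIO3.

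Tnfaip3 went the other way. It stood at 368, 352 and 368 CPM in AL+PBS, at 303, 222 and 252 CPM in IF+PBS, at 296, 201 and 95.9 CPM in AL+NaIO3, and at 280, 341 and 297 CPM in IF+NaIO3. Both the AL+NaIO3 and the IF+PBS libraries lay below each AL+PBS library. AL+NaIO3 spanned the widest range, and its replicate 1 lay between the IF+NaIO3 libraries.

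**Figure D2:**
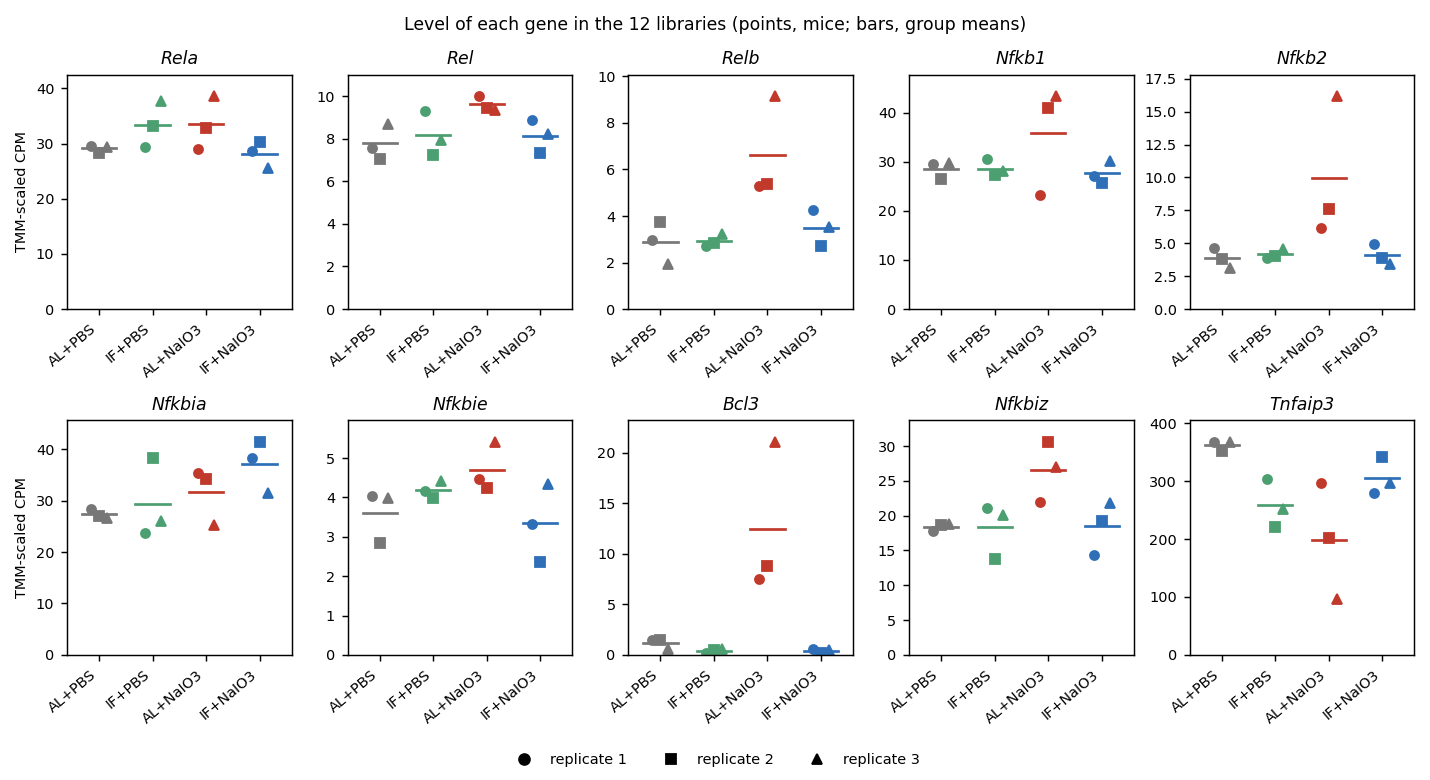
TMM-scaled CPM of each of the 10 genes in the 12 libraries (y axes from 0), by group, with marker shape for the replicate number and a bar at the mean of 3 mice. AL+NaIO3 libraries lie above the other 9 for Bcl3, Nfkb2, Relb, Rel and Nfkbiz, and AL+NaIO3 replicate 3 is the highest point for 6 genes and the lowest for Tnfaip3. The share of all genes with this separation from 9 libraries is not given here. In FPKM, Relb and Nfkbiz overlapped AL+PBS and IF+NaIO3.

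The remaining 6 genes differed less. Nfkbiz, a nuclear IkB protein that promotes a subset of late inflammatory genes, had 22.0, 30.6 and 27.0 CPM in AL+NaIO3 against 17.9, 18.7 and 18.8 CPM in AL+PBS, 21.1, 13.8 and 20.2 CPM in IF+PBS and 14.3, 19.2 and 21.9 CPM in IF+NaIO3. Its AL+NaIO3 libraries were above the other 9 in CPM, by a narrow margin, but in FPKM they overlapped both AL+PBS and IF+NaIO3. Rel, the c-Rel subunit of lymphoid and myeloid cells, had 10.01, 9.46 and 9.35 CPM in AL+NaIO3 and 7.06 to 9.30 CPM in the other groups, which also did not overlap. Nfkb1 had 23.3, 40.8 and 43.4 CPM in AL+NaIO3, the widest spread of its groups, and 25.7 to 30.5 CPM in the other 9 libraries, so that 1 of the AL+NaIO3 mice was the lowest and the other 2 the highest of the 12.

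Rela lay between 25.5 and 38.7 CPM in the 12 libraries, with 33.5 ± 4.85 CPM in AL+NaIO3 and 33.4 ± 4.20 CPM in IF+PBS (SD, n = 3 mice). Nfkbie, the inhibitor IkB-epsilon, lay between 2.37 and 5.42 CPM, and its AL+NaIO3 libraries, at 4.46, 4.23 and 5.42 CPM, were above the 4.03, 2.83 and 3.97 CPM of AL+PBS but overlapped both IF groups. Nfkbia was the one gene with its highest mean in IF+NaIO3, at 37.1 ± 5.13 CPM, against 31.6 ± 5.47 in AL+NaIO3, 29.4 ± 7.88 in IF+PBS and 27.3 ± 0.912 in AL+PBS.

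The first comparison asks what NaIO3 did in freely fed mice. Of the 10 genes, 9 had a higher fitted level in AL+NaIO3 than in AL+PBS. Their median difference was 0.37 log2 units against 0.01 over 15612 genes tested. The groups did not overlap for 6 genes that were higher (Bcl3, Nfkb2, Relb, Nfkbiz, Rel and Nfkbie) and for 1 that was lower (Tnfaip3), where the share over all genes was 9.67% higher and 8.64% lower. In FPKM the counts were 4 (Bcl3, Nfkb2, Rel and Nfkbia) and 1 (Tnfaip3), while the shares over all genes given here are for CPM. Fitted on the 6 libraries with edgeR's quasi-likelihood test, and called at a Benjamini-Hochberg adjusted p under 0.05 and a fold of at least 1.5, 12 of 15612 genes were called (0.0769%; 8 higher and 4 lower, or 10 and 3 with upper quartile scaling) and 0 of the 10. At an unadjusted p under 0.05 there were 5 of the 10 and 1599 of all genes (10.2%), and DESeq2 called 2 of the 10, Bcl3 and Nfkb2, and 411 of 15579 genes (2.64%).

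The fitted difference of Bcl3 was 3.43 ± 0.55 log2 units (SE, 3 mice per group), with an edgeR adjusted p of 0.109. Without AL+NaIO3 replicate 3 the difference was smaller, at 2.80, but the spread was smaller too and the gene was called (adjusted p = 0.0264), as were 90 of 15731 genes (0.572%). A fit of the 12 libraries together, which estimates the spread from the 4 groups, called 177 genes (1.11%) and Bcl3 alone of the 10 (3.41 ± 0.57, adjusted p = 0.0182 from edgeR). That call was lost when any AL+PBS library was left out, with differences of 3.60, 3.65 and 3.08 log2 units and edgeR adjusted p of 0.0795, 0.0964 and 0.0983 (without replicates 1, 2 and 3), and held without any one of the other 9. Without AL+NaIO3 replicate 3 it was 2.81 there (adjusted p = 0.0279 from edgeR). The fit of 12 takes the same spread for the 4 groups. As SD over mean, the spread of Bcl3 was 60.1% in AL+NaIO3 and 45.0% to 56.0% elsewhere. That of Nfkb2 was 54.4% against 9.29% to 19.8%, while for Rel, Nfkbia, Nfkbie and Nfkbiz AL+NaIO3 was not the widest group. Where AL+NaIO3 varies more, adjusted p from that fit can be too small, and the size of this was not tested.

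For Nfkb2 the estimate was 1.38 ± 0.41 log2 units, with an edgeR adjusted p of 0.319 on 6 libraries and 0.0717 on 12 and a DESeq2 adjusted p of 0.0358 on 6, and it was 0.83 without AL+NaIO3 replicate 3. Relb had 1.20 ± 0.37 (adjusted p = 0.328 from edgeR). Nfkbiz had 0.54 ± 0.16, Nfkbie 0.39 ± 0.29, Nfkb1 0.34 ± 0.23 and Rel 0.32 ± 0.20, all on the log2 fold change scale. Those of Nfkbia and Rela were 0.22 ± 0.15 and 0.21 ± 0.15. Tnfaip3 had -0.87 ± 0.34 (adjusted p = 0.455 from edgeR), which was -0.55 without AL+NaIO3 replicate 3 and -1.29 without replicate 1. The differences without AL+NaIO3 replicate 3 were 0.88 for Relb, 0.51 for Nfkbiz, 0.35 for Nfkbia, 0.33 for Rel, 0.27 for Nfkbie, 0.17 for Nfkb1 (0.57 without replicate 1) and 0.086 for Rela. In the fit of 12 libraries without AL+NaIO3 replicate 1, Relb, Nfkb2, Tnfaip3 and Bcl3 were called, 3 more than with that library in the fit. That setting called 924 of 16207 genes (5.7%), the most of any with 1 of the 12 libraries left out, where the lowest was 22.

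**Figure D3:**
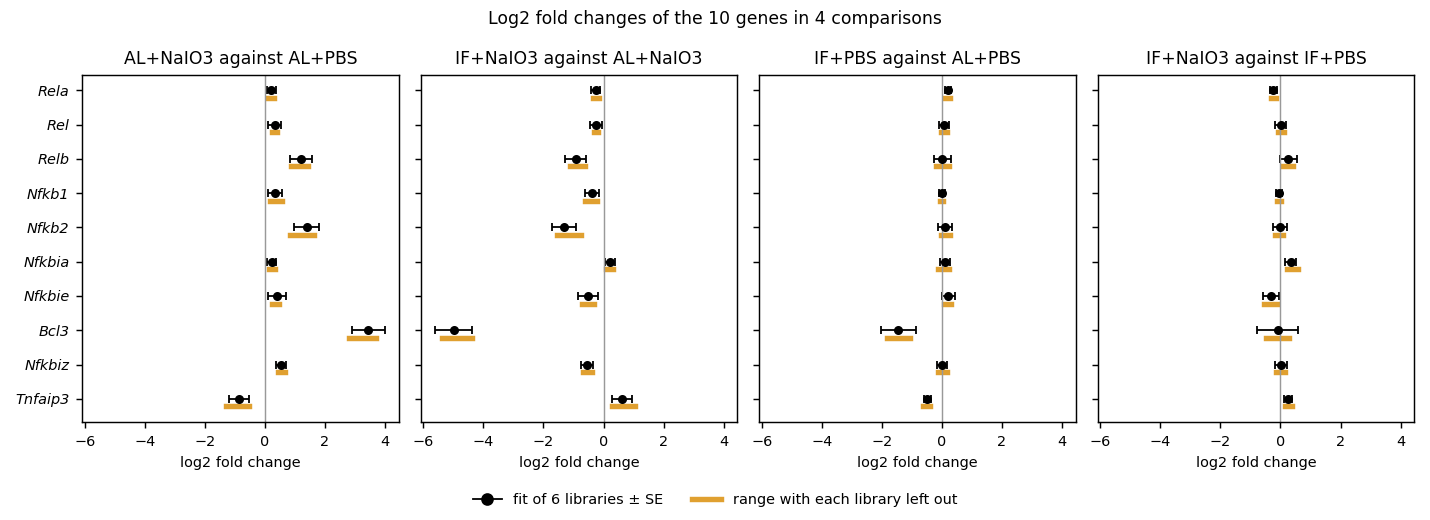
Log2 fold change of each gene (x axis) in 4 comparisons, with points and bars for the edgeR fit of 6 libraries ± SE and orange lines for the range when each library was left out in turn. The estimates of Bcl3, at 3.43 and -4.99, stand away from 0 in the first and second panels, and the values in the fourth panel lie between -0.32 and 0.34.

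The second comparison, IF+NaIO3 against AL+NaIO3, asks how fasting altered the injected eye. It shares the AL+NaIO3 libraries with the first, so that opposite signs in both are built in where those 3 libraries are unusual. The fitted level was lower in IF+NaIO3 for 8 of the 10 genes, with a median log2 fold change of -0.45 against -0.01 over 15648 genes, and higher for Nfkbia and Tnfaip3. The groups did not overlap for 5 genes that were lower, Bcl3, Nfkb2, Relb, Rel and Nfkbiz, against 10.1% of all genes, and for 0 that were higher, against 8.88%. In FPKM it was 3 genes that were lower, Bcl3, Nfkb2 and Rel, while Relb and Nfkbiz overlapped. The shares over all genes given here are for CPM. On the 6 libraries edgeR called 6 genes (0.0383%) and 0 of the 10, with 4 of the 10 and 1828 of all genes (11.7%) at an unadjusted p under 0.05, while DESeq2 called 1 of the 10, Bcl3, and 478 of 15623 genes (3.06%).

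For Bcl3 the estimate was -4.99 ± 0.61 log2 units (SE, 3 mice per group), with an edgeR adjusted p of 0.0595, and -4.37 without AL+NaIO3 replicate 3 (adjusted p = 0.00575), where 75 of 15740 genes (0.476%) were called. The fit of 12 libraries called 190 genes (1.19%) and, of the 10, Bcl3 alone (-4.97 ± 0.63, adjusted p = 0.00412 from edgeR), and this call held when each of the 12 libraries was left out in turn (-4.36 without AL+NaIO3 replicate 3, adjusted p = 0.00225 from edgeR). Nfkb2 had -1.30 ± 0.40 (adjusted p = 0.305 on 6 libraries and 0.0720 on 12, edgeR), and -0.76 without AL+NaIO3 replicate 3. It was also called in the fit of 12 without AL+NaIO3 replicate 1, as were 1570 of 16207 genes (9.69%), and without replicate 2, as were 675 of 16152 genes (4.18%). Relb had -0.93 ± 0.35, Nfkbiz -0.54 ± 0.21, Nfkbie -0.51 ± 0.33, Nfkb1 -0.39 ± 0.24, Rela -0.26 ± 0.16 and Rel -0.25 ± 0.21. Tnfaip3 had 0.62 ± 0.34 (adjusted p = 0.522 from edgeR) with 0.29 without AL+NaIO3 replicate 3 and 1.04 without replicate 1, and Nfkbia had 0.22 ± 0.17. With AL+NaIO3 replicate 3 left out, the estimates were -0.62 for Relb, -0.53 for Nfkbiz, -0.39 for Nfkbie, -0.27 for Rel, -0.23 for Nfkb1 (-0.62 with replicate 1 left out), -0.14 for Rela and 0.083 for Nfkbia. Without AL+NaIO3 replicate 1, the fit of 12 called Nfkb1 and Tnfaip3 as well as Nfkb2 and Bcl3. Over all genes that was again the highest count with 1 of the 12 libraries left out, where the lowest was 33.

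With PBS alone, IF+PBS against AL+PBS, the median difference of the 10 genes was 0.04 log2 units against 0.01 over 15361 genes. edgeR called 0 genes in all (0% in the fit of 6 libraries and 0% in that of 12), with 2623 genes (17.1%) and 2 of the 10 at an unadjusted p under 0.05, and DESeq2 called 192 genes (1.33%). Of the 10, the groups did not overlap for Tnfaip3, which was lower, where the share over all genes was 11.2% lower and 10.6% higher. Its estimate was -0.49 ± 0.11 log2 units (SE, 3 mice per group), with an adjusted p of 0.175 in edgeR and 0.00736 in DESeq2, a fold of 1.40 and so under the limit of 1.5. Without IF+PBS replicate 1 it was -0.62 and was called (adjusted p = 0.00774 from edgeR), as were 472 of 15602 genes (3.03%). Bcl3 had -1.45 ± 0.59 (adjusted p = 0.257 from edgeR), from 17 to 63 counts per library in AL+PBS and 5 to 20 in IF+PBS, and the groups overlapped. The other 8 genes had log2 fold changes between -0.01 and 0.22.

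In fasted mice, IF+NaIO3 against IF+PBS, 5 of the 10 genes were higher and 5 lower, with values between -0.32 (Nfkbie) and 0.34 (Nfkbia) on the log2 scale and a median of -0.01 against 0.00 over 15305 genes. edgeR called 0 genes in all (0% in both fits), with 2326 genes (15.2%) and 0 of the 10 at an unadjusted p under 0.05, and DESeq2 called 72 genes (0.723%). Without IF+PBS replicate 1 edgeR called 197 of 15522 genes (1.27%) on 6 libraries, 155 higher and 42 lower, and 0 of the 10, and without any other of these libraries it called 0 to 11 genes. The groups overlapped for all 10 genes in CPM, where the shares over all genes were 10.1% higher and 10.9% lower, and for 9 in FPKM, Nfkbie being lower. Bcl3 had -0.10 ± 0.69 and Nfkb2 had -0.02 ± 0.24, so at the counts of Bcl3 in these groups a difference of 1 log2 unit in either direction lies within 2 standard errors of the estimate.

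Whether NaIO3 acted differently in the IF and AL diets needs the interaction, fitted on the 12 libraries. edgeR called 5 of 15970 genes (0.0313%) and 0 of the 10 at an adjusted p under 0.05, while DESeq2 called 1 of the 10 and 217 of 15312 genes (1.42%). Bcl3 had an interaction of -3.52 ± 0.85 on the log2 scale (edgeR's adjusted p was 0.210 and that of DESeq2 0.00427), Nfkb2 of -1.39 ± 0.47 (adjusted p = 0.315 from edgeR) and Tnfaip3 of 1.12 ± 0.40 (adjusted p = 0.336 from edgeR). Without AL+NaIO3 replicate 1, edgeR called Bcl3 (adjusted p = 0.0472) and Tnfaip3 (adjusted p = 0.0395), along with 366 of 16207 genes (2.26%), against 3 to 32 genes when any other library was left out. The interactions without AL+NaIO3 replicate 3 were -2.91 for Bcl3, -0.86 for Nfkb2 and 0.78 for Tnfaip3, with edgeR adjusted p of 0.245, 0.402 and 0.260. For a single gene, the smallest two-sided p that an exact permutation test allows with 3 mice per group is 0.1, so none was run.

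Cell type markers also differed between the groups. The 9 markers of microglia and macrophages, all detected in each group, summed to 120, 88.4 and 225 CPM in AL+NaIO3 and to between 39.4 and 55.4 CPM in the other 9 libraries, and all 9 had a positive log2 fold change in AL+NaIO3 against AL+PBS (median 2.04), with 2 called higher in the fit of 12 libraries. In IF+NaIO3 against AL+NaIO3, 1 of the 9 was higher (median -1.65), and 3 were called lower in the fit of 12 libraries. That fit called 1.11% of all genes in AL+NaIO3 against AL+PBS and 1.19% in IF+NaIO3 against AL+NaIO3. Only 8 of the 9 passed the filter on low counts in IF+NaIO3 against IF+PBS. The 9 thus include a gene that passed through its level in AL+NaIO3, for which these directions are built in. Lymphocyte markers summed to 3.91 to 10.8 CPM in AL+NaIO3 and to 0.693 to 2.40 CPM elsewhere, with Ms4a1 at 0 in the other 3 groups. Neutrophil markers were low, at 4.52 to 6.93 CPM against 1.59 to 4.28 CPM, with Ly6g and Elane at 0 in AL+NaIO3. Endothelial markers summed to 224, 229 and 444 CPM in AL+NaIO3 and to 157 to 201 CPM elsewhere. The photoreceptor markers, by contrast, summed to 67403, 39327 and 20195 CPM in AL+NaIO3 and to 52200 to 64152 CPM in the other 9. RPE markers summed to 746, 611 and 1258 CPM in AL+NaIO3 and to 1485 to 1689 CPM in AL+PBS. Of these markers, 3 of 8 had a positive log2 fold change and 3 of 8 were called lower in the fit of 12 libraries. In IF+NaIO3 they summed to 1553, 699 and 1291 CPM, below the 1760 to 2255 CPM of IF+PBS, and 0 of 8 had a positive log2 fold change there (median -0.76), with 0 called in either fit. Stromal markers did not overlap between these fasted groups either, at 105 to 126 CPM in IF+NaIO3 and 55.6 to 100 CPM in IF+PBS, nor did lymphocyte markers, at 0.693 to 1.54 and 1.80 to 2.09 CPM. Among single genes, 10.1% were higher and 10.9% lower without overlap between these groups. The 6 markers of Muller cells and astrocytes summed to 3576 to 4531 CPM in AL+NaIO3 and 3426 to 4198 CPM elsewhere, with 2 called higher in AL+NaIO3 in the fit of 12 libraries, against AL+PBS and against IF+NaIO3. Gfap, the marker of reactive glia, stood at 112, 97.1 and 304 CPM in AL+NaIO3 and at 10.7 to 23.0 CPM in the other 9 libraries.

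Side by side, AL+NaIO3 replicate 3 had the most microglial and stromal marker reads and the highest Bcl3, Nfkb2 and Relb, and the fewest photoreceptor marker reads and the lowest Tnfaip3. Between AL+NaIO3 replicates 1 and 2 the order went the other way. Microglial markers summed to 120 and 88.4 CPM there, with Bcl3 at 7.51 and 8.82 CPM. Stromal markers summed to 170 and 86.4 CPM, with Nfkb2 at 6.16 and 7.61 CPM. Within AL+NaIO3, Tnfaip3 and the photoreceptor markers were both highest in replicate 1 and lowest in replicate 3. Within IF+PBS the order was reversed, with Tnfaip3 at 303, 222 and 252 CPM and photoreceptor markers at 52200, 57548 and 55970 CPM. Both were lowest in replicate 2 of AL+PBS and highest in replicate 2 of IF+NaIO3, and the rest of the order differed. AL+NaIO3 replicate 1 had the highest photoreceptor sum of the 12 libraries, with Tnfaip3 below each AL+PBS library. The part of these cell types in the levels of the 10 genes was not tested, and in such a mixture fewer cells of a type and less RNA per cell cannot be told apart. With AL+NaIO3 replicate 3 left out, edgeR called Bcl3 in both comparisons that use AL+NaIO3, on 6 libraries and on 12. In IF+PBS against AL+PBS, where Tnfaip3 was lower, photoreceptor markers summed to 52200 to 57548 CPM in IF+PBS and 58313 to 61401 CPM in AL+PBS. Sums were also lower in IF+PBS, with no overlap, for stroma (55.6 to 100 against 119 to 190 CPM), skeletal muscle (14.6 to 59.5 against 79.4 to 181 CPM), endothelium (165 to 166 against 187 to 201 CPM), Muller cells and astrocytes (3426 to 3566 against 3735 to 4198 CPM) and lens (1.03 to 1.49 against 3.12 to 172 CPM). RPE marker sums were higher, at 1760 to 2255 against 1485 to 1689 CPM. Among single genes, 11.2% were lower and 10.6% higher without overlap in this comparison. The part of these cell types in the level of Tnfaip3 was not tested.

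**Figure D4:**
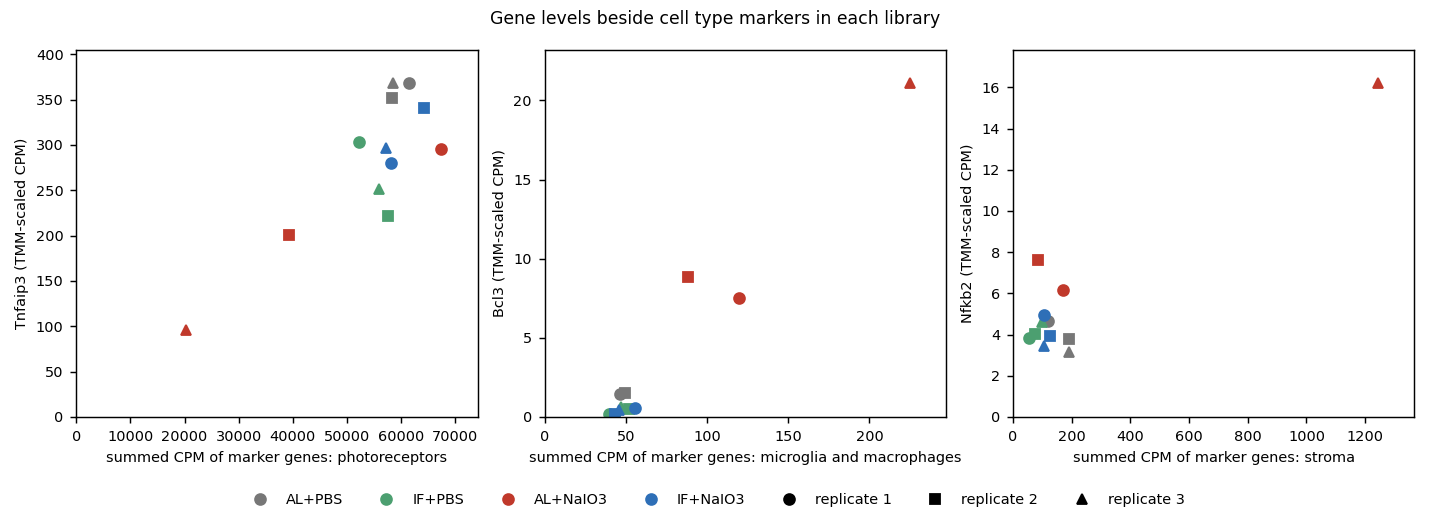
TMM-scaled CPM of Tnfaip3, Bcl3 and Nfkb2 (y axes) against the summed CPM of markers of photoreceptors, of microglia and macrophages, and of stroma (x axes) in the 12 libraries, with colour for the group and marker shape for the replicate number. AL+NaIO3 replicate 3 is the extreme point in each panel, and the AL+NaIO3 libraries lie at 88.4 to 225 CPM of microglial markers against at most 55.4 CPM in the other 9.

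The other genes of the pathway were read from 6 lists of 79 genes. Marker sums of microglia and macrophages were also highest in AL+NaIO3 (88.4 to 225 CPM, against at most 55.4 CPM elsewhere). The part of cell types in the values of these lists was not tested. Most of the 12 receptors that signal to NF-kB had a fitted difference in the direction of Bcl3. In AL+NaIO3 against AL+PBS, 11 of 12 were higher, with a median log2 fold change of 0.87 against 0.01 over all genes, and for 9 the unadjusted p was under 0.05, against 10.2% of all genes. In IF+NaIO3 against AL+NaIO3, 12 of 12 were lower, with a median of -1.04, and for 7 the unadjusted p was under 0.05, against 11.7% of all genes. Only 10 of the 12 passed the filter on low counts in IF+NaIO3 against IF+PBS. The 12 thus include genes that passed through their level in AL+NaIO3, for which a lower value in IF+NaIO3 is built in. With 6 libraries edgeR called 0 of the 12 in either comparison that uses AL+NaIO3, and with 12 libraries it called Tlr2 and Tnfrsf1a in both, where the share over all genes was 1.11% and 1.19%. Tlr2, a receptor for bacterial lipoproteins, had 5.06 ± 2.85 CPM in AL+NaIO3 (SD, n = 3 mice) against 0.628 ± 0.0949 in AL+PBS and 0.731 ± 0.127 in IF+NaIO3 (adjusted p = 0.0154 and 0.0172 from edgeR). Tnfrsf1a, the main receptor for TNF, had 32.1 ± 19.5 CPM in AL+NaIO3 against 10.7 ± 1.49 in AL+PBS and 9.26 ± 1.30 in IF+NaIO3 (adjusted p = 0.0400 and 0.0217 from edgeR). Without AL+NaIO3 replicate 3, which had 54.4 CPM of Tnfrsf1a against 18.1 and 23.9 in the other 2, both genes were again called in the fit of 12, Tlr2 at 2.52 and -2.30 and Tnfrsf1a at 0.98 and -1.19 log2 units. In the fits of 6 with that library left out, edgeR called Tnfrsf1a in the second comparison (adjusted p = 0.0497) but not in the first (0.0852). It called Tlr2 in neither (adjusted p = 0.0612 and 0.0942), where the share over all genes was 0.572% and 0.476%.

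Known NF-kB target genes were fitted only where they passed the filter on low counts. Of 20 on the list, 14 passed the filter on low counts in AL+NaIO3 against AL+PBS and 13 of those were higher (median log2 fold change 1.21), while 15 passed in IF+NaIO3 against AL+NaIO3 and 13 were lower (median -1.24). Since genes that are low in one group pass the filter only where the other is high, these counts describe the genes that passed and not the list. The fit of 12 libraries called Irf1, Vcam1, C3 and Ccl2 higher in the first comparison and Irf1, Vcam1, C3 and Csf1 lower in the second, beside 1.11% and 1.19% of all genes, and the fit of 6 called 0. Vcam1, an adhesion molecule for leukocytes, had 42.8 ± 25.7 CPM in AL+NaIO3 against 13.0 ± 1.89 in AL+PBS and 13.9 ± 1.56 in IF+NaIO3. C3, the central complement component, had 21.8 ± 18.5 CPM against 3.20 ± 0.382 and 2.38 ± 0.654. Irf1, an interferon-responsive transcription factor, had 16.9 ± 4.33 CPM against 7.34 ± 0.922 and 7.21 ± 0.928. Csf1, the growth factor of macrophages, had 18.1 ± 9.33 CPM against 7.98 ± 1.68 and 6.45 ± 0.468. Ccl2, a chemokine that draws monocytes, had 0 counts in each AL+PBS library and 1.90 ± 1.06 CPM in AL+NaIO3. Cxcl10, an interferon-induced chemokine, had the largest difference of the list between the NaIO3 groups among genes with a mean of at least 1 CPM, with 6.16 ± 3.01 CPM in AL+NaIO3 and 0.271 ± 0.243 in IF+NaIO3 (adjusted p = 0.168 from edgeR on 6 libraries and 0.0683 on 12).

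Of these target genes, Vcam1 stood at 72.3 CPM, C3 at 43.1 CPM and Csf1 at 28.8 CPM in AL+NaIO3 replicate 3, against at most 31.0, 11.1 and 14.1 CPM in the other 2. Without that library the fit of 12 called Vcam1 in both comparisons (1.11 and -1.02 log2 units) and Irf1 in both (adjusted p = 0.0295 and 0.0235 from edgeR). C3 was called in the second (-2.23) but not in the first (1.80, adjusted p = 0.0574 from edgeR), and Csf1 in the second was no longer called (-0.99 against -1.49 with that library, adjusted p = 0.0560 from edgeR). Ccl2 was no longer called in the first (adjusted p = 0.0555 from edgeR), while its levels in replicates 1 and 2, 2.12 and 0.747 CPM, stood against 0 counts in AL+PBS. For Cxcl10 the second was -4.57 log2 units, with an edgeR adjusted p of 0.0918. In the fits of 6 libraries with AL+NaIO3 replicate 3 left out, edgeR called C3 (adjusted p = 0.0132 and 0.0134) and Vcam1 (0.0362 and 0.0480) in both comparisons. Irf1, Csf1, Ccl2 and Cxcl10 were not called there, and the share over all genes was 0.572% and 0.476%.

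The 22 kinases and adaptors, which carry the signal to the IkB kinase, had median differences of 0.02 log2 units in AL+NaIO3 against AL+PBS and -0.05 in IF+NaIO3 against AL+NaIO3, and 0 were called in either fit, with 7 of 22 at an unadjusted p under 0.05 in each comparison, where the share over all genes was 10.2% and 11.7%. In the first 13 of the 22 were higher and in the second 9. Among genes of that list with a mean of at least 1 CPM over the 12 libraries, the largest difference in IF+NaIO3 against AL+NaIO3 was that of Birc3, a ubiquitin ligase, with 1.30 ± 0.512 CPM in IF+NaIO3 and 3.86 ± 2.35 in AL+NaIO3 (-1.58 log2 units, with an edgeR adjusted p of 0.341), and -0.95 without AL+NaIO3 replicate 3. Its level in AL+PBS was 0.947 ± 0.490 CPM, and AL+NaIO3 replicate 3 had 6.56 CPM against 2.25 and 2.77 in the other 2. Of 13 other negative regulators, 12 were tested and 0 were called in either fit, with medians of 0.04 and -0.08 log2 units, and the unadjusted p was under 0.05 for 2 and 3 of them, against 10.2% and 11.7% of all genes. By the same rule the gene named from this list was Irak3, an inhibitor of Toll-like receptor signalling, with 0.934 ± 0.379 CPM in IF+NaIO3 and 3.19 ± 2.53 in AL+NaIO3 (-1.78 log2 units, with an edgeR adjusted p of 0.363), and -0.89 without AL+NaIO3 replicate 3. Its level in AL+PBS was 0.613 ± 0.198 CPM, and AL+NaIO3 replicate 3 had 6.11 CPM against 1.57 and 1.88 in the other 2.

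Of the 3 other IkB family genes tested, Nfkbid stood at 3.60 ± 1.01 CPM in AL+NaIO3, 3.45 ± 0.730 in AL+PBS and 2.92 ± 0.557 in IF+NaIO3, and 0 of the 3 were called in either fit or had an unadjusted p under 0.05 in these comparisons. Of 9 ligands, 3 passed the filter in AL+NaIO3 against AL+PBS and 0 were called in either fit. Tnfsf12, the ligand TWEAK, had 78.6 ± 24.0 CPM in AL+NaIO3, 97.3 ± 3.63 in AL+PBS and 109 ± 3.86 in IF+NaIO3. In IF+PBS against AL+PBS and in IF+NaIO3 against IF+PBS, 0 genes of the 6 lists were called by edgeR in either fit.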

How the data were processed

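RNA from tissue of 12 mice that the labels name RPE, choroid and sclera (eye cups in the methods) was poly-A selected and sequenced by a company. The authors deposited whole-number counts per gene without normalization, and FPKM values, which are counts per gene length and library depth. The submitters' processing notes name HISAT2, StringTie, DESeq2 and edgeR. The counting tool, annotation and use of strand are not given in the sources used here. The methods name GRCm39, but of 21221 genes matched by symbol, 21203 (99.9%) overlapped their position in RefSeq GRCm38.p6, against 3560 of 21689 (16.4%) in a GRCm39 annotation, so coordinates are on GRCm38. A deposited table of the authors' own comparison (fold changes and p-values) was not used, and 0 per-sample columns were left unassigned.

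Counts were filtered with filterByExpr, scaled by TMM and tested with edgeR 4.0.16 (quasi-likelihood test, Benjamini-Hochberg adjustment over all tested genes) in R 4.3.3, on the 6 libraries of each comparison. A call needed a fold of at least 1.5 and an adjusted p below 0.05, or for the interaction, on 12 libraries, the adjusted p alone. The script was tested on simulated data. Labels give each library as a separate mouse but no litter, batch or day. Depth was 26364665 to 43046950 counts per library, so counting error is small except for genes with few counts, such as Bcl3. Alternatives were DESeq2 1.42.0, upper quartile scaling, other filters, 12 libraries in one fit, a replicate block, leaving out each library, and FPKM for overlap. Changes to the fit of 12 libraries (leaving out each library, upper quartile scaling, a replicate block, DESeq2) were added after the data had been seen.

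The 10 members and the pathway and marker lists were chosen with earlier results of these data known. All 10 members are named. From each pathway list, the text names the gene with the largest difference in IF+NaIO3 against AL+NaIO3 among genes with a mean of at least 1 CPM, since 0 were called on 6 libraries, and the genes called on 12 libraries, which were chosen after their values were seen. Skeletal muscle markers summed to 14.6 to 181 CPM. Promoter windows were taken from RefSeq GRCm38.p6.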

Additional observations from a re-analysis of the deposited data

How the results depend on the processing

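Of 477 values of the 10 genes under other settings, 437 kept their direction and side of the threshold, 10 passed it only under the alternative and 30 changed sign. Since 0 of the 10 genes were called as reported, no call could be lost in this count. The call of Bcl3 on 12 libraries in AL+NaIO3 against AL+PBS was lost without any one AL+PBS library. The 30 were all in IF+NaIO3 against IF+PBS or IF+PBS against AL+PBS, where the values as reported lay between -0.097 and 0.11 log2 units, and the cause was not tested. In IF+NaIO3 against IF+PBS, Rel was -0.0016 with DESeq2, -0.011 with upper quartile scaling and -0.0041 with 12 libraries in one fit, and Nfkbiz was -0.0018 with upper quartile scaling. With a library left out there, Bcl3 ranged from -0.48 to 0.29, Nfkb1 from -0.12 to 0.0025, Nfkb2 from -0.18 to 0.086, Rel from -0.08 to 0.1 and Nfkbiz from -0.16 to 0.16. In IF+PBS against AL+PBS, Nfkb1 was -0.0008 with upper quartile scaling and -0.0034 with at least 10 counts in each library. With a library left out there, Nfkb1 ranged from -0.052 to 0.036, Nfkb2 from -0.019 to 0.26, Rel from -0.035 to 0.16, Relb from -0.21 to 0.25, Nfkbia from -0.14 to 0.23 and Nfkbiz from -0.12 to 0.16.

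In AL+NaIO3 against AL+PBS, 0 of the 10 genes were called on 6 libraries, 2 with DESeq2, 1 with 12 libraries in one fit, and 0 to 1 with a library left out. In IF+NaIO3 against AL+NaIO3, 0 were called on 6 libraries, 1 each with DESeq2, with no filter on low counts, with 12 libraries in one fit and with the replicate block, and 0 to 1 with a library left out. In the fit of 12 libraries the count in these comparisons was 1 and 1, with DESeq2 4 and 2, and with a library left out 0 to 4 and 1 to 4. In IF+PBS against AL+PBS it was 0, and 0 to 1 with a library left out. For the interaction it was 0, with DESeq2 1, and 0 to 2 with a library left out. Of the 10 genes, FPKM gave 4 in place of 6 that were higher without overlap in AL+NaIO3 against AL+PBS. It gave 3 in place of 5 that were lower in IF+NaIO3 against AL+NaIO3, and 1 in place of 0 in IF+NaIO3 against IF+PBS. The shares over all genes given above are for CPM only.

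Over all genes, DESeq2 called 411 genes in AL+NaIO3 against AL+PBS (12 with edgeR), 478 in IF+NaIO3 against AL+NaIO3 (6 with edgeR) and 217 for the interaction (5 with edgeR). In the fit of 12 libraries the first 2 counts were 177 and 190, 615 and 873 with DESeq2, and 22 to 924 and 33 to 1570 with a library left out, and for the interaction 3 to 366, each highest without AL+NaIO3 replicate 1. With no filter on low counts the first 2 counts on 6 libraries were 19 and 16. With the replicate block both were 28, and Bcl3 was called in the second. Replicate numbers are not a stated pairing, and same-numbered libraries did not deviate together (correlations from -0.10 to 0.14). With a library left out, the first 2 counts ranged from 0 to 90 and from 0 to 75, the highest without AL+NaIO3 replicate 3. In IF+NaIO3 against IF+PBS the range was 0 to 197 and in IF+PBS against AL+PBS 1 to 472, both highest without IF+PBS replicate 1. With few reads, Bcl3 in the IF groups and in AL+PBS is limited by counting error as well as by the spread between mice.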
